A study of Mus musculus with 23 samples.

Results

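The cornified envelope and skin barrier genes are 38 mouse genes whose products build, crosslink, lubricate or shed the outermost cells of the skin. They were chosen by name, with earlier results of these data known. Each was found through the RefSeq accession of its probes, with the probe of the highest mean standing for the gene. Of the 38 genes 36 matched a probe, and 32 of the 36 were bright enough to be tested among 16324 tested genes. Flg and Sprr2a1 matched no probe and were not analysed here, and Sprr2b, Sprr2h, Sprr4 and Rptn were matched but too dim for the test. Of the 32, 7 (Ivl, Sprr2d, Sprr3, Flg2, Klk7, Abca12 and Lipk) passed the brightness filter through eyelid epithelium alone and so had to stand higher there; the other 25 passed through another group as well, 19 of them through a gland group.

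The study measured RNA from the eyelid and from the lacrimal gland (LG), which makes the watery part of the tears, and the harderian gland (HG), a lipid-secreting gland of the orbit, in mice of the B6/CL background strain. At embryonic day 16.5 each tissue had been separated into epithelium and mesenchyme, the eyelid together with its conjunctiva, which gave eyelid epithelium, eyelid mesenchyme, LG epithelium, LG mesenchyme, HG epithelium and HG mesenchyme with 3 arrays each. Adult LG (2 arrays) and adult HG (3 arrays) were whole glands of mice aged 7 weeks, so that a difference between an adult gland and an embryonic epithelium cannot be told apart from the step of separating the tissue. The labels used here state no further allele, treatment or sex, and do not say whether the arrays of a group came from separate animals, so a p-value here reflects array-to-array spread, which may be technical.

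The surface of stratified skin is renewed from a basal layer, and cells that move outward fill with keratins, replace their membrane with a shell of crosslinked protein and seal the gaps between cells with lipid. Loricrin, involucrin and the small proline-rich (SPRR) proteins are the precursors of that shell, transglutaminases crosslink them, filaggrin-like proteins bundle keratin, and kallikreins cut the last junctions when a dead cell is shed. In the mouse the skin barrier forms late in gestation, and the eyelids are fused at this stage and covered by skin outside and conjunctiva inside. Many of the genes lie in 1 block, the epidermal differentiation complex: on GRCm38.p6, 16 of the 38 start between 92.08 and 93.44 Mb of chromosome 3, of which 10 were tested, and the members lie on 13 chromosomes in all.

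The sequences upstream of the genes were read from RefSeq (GRCm38.p6), which held windows for 33 of the 38 members, 37 windows in all. In the 250 bases before the transcription start, searched on both strands, the letters TATAAA, the core of a TATA box, were found in 15 of the 33 members, or 40.5% of their windows, against 12.4% of all 32851 windows in the table. The letters TGANTCA, the core recognised by AP-1 factors, were found in 14 members, or 43.2% of their windows, against 6.75% of all windows. Both motifs together stood in 11 members and 29.7% of their windows, against 1.21% of all windows. Among the 15 windows on chromosome 3, 73.3% held TATAAA and 66.7% held TGANTCA, against 14.7% and 7.03% of all 1637 windows of that chromosome. The shorter letters CACCC, bound by Krüppel-like factors, separated the members less from the background, with 70.3% of their windows against 52% of all. In 12 of the members' windows TATAAA began between 25 and 35 bases before the start, as it did in 2.12% of all windows. A match describes the letters and is not evidence of binding.

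The windows are shown 5′ to 3′ and ending 1 base before the start and belong to members that contrast in the arrays; capitals mark TATAAA and TGANTCA. Lor (chr3:92083143-92083392, minus strand) and Krtdap (chr7:30787655-30787904, plus strand) are among the members with the largest differences below, and Sprr1a (chr3:92485882-92486131, minus strand) was above background in every embryonic group. Sprr2d (chr3:92338890-92339139, plus strand) and Sprr2b (chr3:92316455-92316704, plus strand) are close relatives of which 1 was measured and the other was not. Tchh (chr3:93442080-93442329, plus strand) was not called between the eyelid compartments and holds neither motif. The windows of Abca12, Klk5, Acer1 and Casp14, all called higher in eyelid epithelium, hold neither motif either. That of Flg2, not called there, holds TGANTCA. Whether the motifs go with the levels was not tested.
Lor: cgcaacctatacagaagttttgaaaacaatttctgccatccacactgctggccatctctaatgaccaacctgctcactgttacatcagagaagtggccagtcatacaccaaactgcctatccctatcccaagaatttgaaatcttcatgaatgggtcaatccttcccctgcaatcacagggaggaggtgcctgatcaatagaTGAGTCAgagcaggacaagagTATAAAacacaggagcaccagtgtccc
Krtdap: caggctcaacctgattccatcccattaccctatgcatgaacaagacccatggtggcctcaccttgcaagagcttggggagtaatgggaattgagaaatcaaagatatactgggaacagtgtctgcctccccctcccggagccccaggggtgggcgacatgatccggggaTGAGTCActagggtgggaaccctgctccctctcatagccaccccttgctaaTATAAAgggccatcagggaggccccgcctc
Sprr1a: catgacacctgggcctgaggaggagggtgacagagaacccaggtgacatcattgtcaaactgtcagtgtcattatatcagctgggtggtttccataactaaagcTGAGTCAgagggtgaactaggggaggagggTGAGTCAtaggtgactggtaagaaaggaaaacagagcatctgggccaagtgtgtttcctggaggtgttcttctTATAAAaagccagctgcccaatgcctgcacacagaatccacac
Sprr2d: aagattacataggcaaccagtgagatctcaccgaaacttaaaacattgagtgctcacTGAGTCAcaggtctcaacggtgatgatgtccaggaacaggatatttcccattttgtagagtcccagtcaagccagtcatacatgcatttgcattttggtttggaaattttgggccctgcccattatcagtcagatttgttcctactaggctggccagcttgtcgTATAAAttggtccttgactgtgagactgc
Sprr2b: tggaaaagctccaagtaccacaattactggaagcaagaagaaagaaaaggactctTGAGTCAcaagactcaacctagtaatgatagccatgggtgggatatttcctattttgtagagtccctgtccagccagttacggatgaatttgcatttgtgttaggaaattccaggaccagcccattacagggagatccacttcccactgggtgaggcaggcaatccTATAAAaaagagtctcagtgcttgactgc
Tchh: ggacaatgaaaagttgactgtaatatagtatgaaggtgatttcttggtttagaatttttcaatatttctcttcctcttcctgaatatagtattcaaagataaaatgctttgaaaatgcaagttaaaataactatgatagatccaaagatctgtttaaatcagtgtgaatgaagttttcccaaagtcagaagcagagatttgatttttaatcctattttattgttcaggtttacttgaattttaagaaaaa

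In Lor, TATAAA began 27 bases and TGANTCA 48 bases before the start. In Krtdap the distances were 30 and 81 bases. In Sprr2d and Sprr2b TATAAA began 29 bases before the start in both, and TGANTCA 193 and 195 bases before it. Over the last 100 bases Sprr2d and Sprr2b were identical at 57% of positions, although 3 of 3 eyelid epithelium arrays measured Sprr2d above background and 0 of 3 measured Sprr2b. Sprr2h, whose window also holds both motifs, was above background on 2 of the 3. The SPRR2 genes are recent copies of one another, so how a probe of 1 divides its signal among them is uncertain.

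Each level below is the log2 of the probe's background-subtracted signal minus the 75th percentile of its array, so 0 is that percentile and a step of 1 is a doubling. Levels compare groups for 1 probe and are not compared between probes. A difference was called where limma's moderated test, fitted to all 23 arrays and adjusted over the 16324 genes with the Benjamini-Hochberg method, gave an adjusted p under 0.05. Where no array of the dimmer group was well above background, the fold is given as a bound. The share of spots well above background was 42.4 to 64.6 percent by array, and the 75th percentile of signal was lowest in adult LG (194 and 139 intensity units, up to 857 elsewhere). The tissue labels were checked against marker lists. The summed level of 15 mesenchyme genes was 179 to 260 multiples of the 75th percentile in eyelid epithelium, against 1668 to 2264 in eyelid mesenchyme, and that of 10 basal epithelium genes was 1444 to 1585, against 153 to 333.

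Eyelid epithelium was the group in which the barrier genes were most broadly measured. Of the 36 matched genes, 32 were well above background on every eyelid epithelium array, against 25 in eyelid mesenchyme, 17 in LG epithelium, 17 in HG epithelium, 13 in LG mesenchyme, 14 in HG mesenchyme, 10 in adult LG and 13 in adult HG. Of the 32, 17 were also above background on every LG and HG epithelium array, and 13 on none of them. Rptn, which encodes repetin, a relative of filaggrin, was on no eyelid epithelium array above background, and Sprr4 was on 1.

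**Figure D1:**
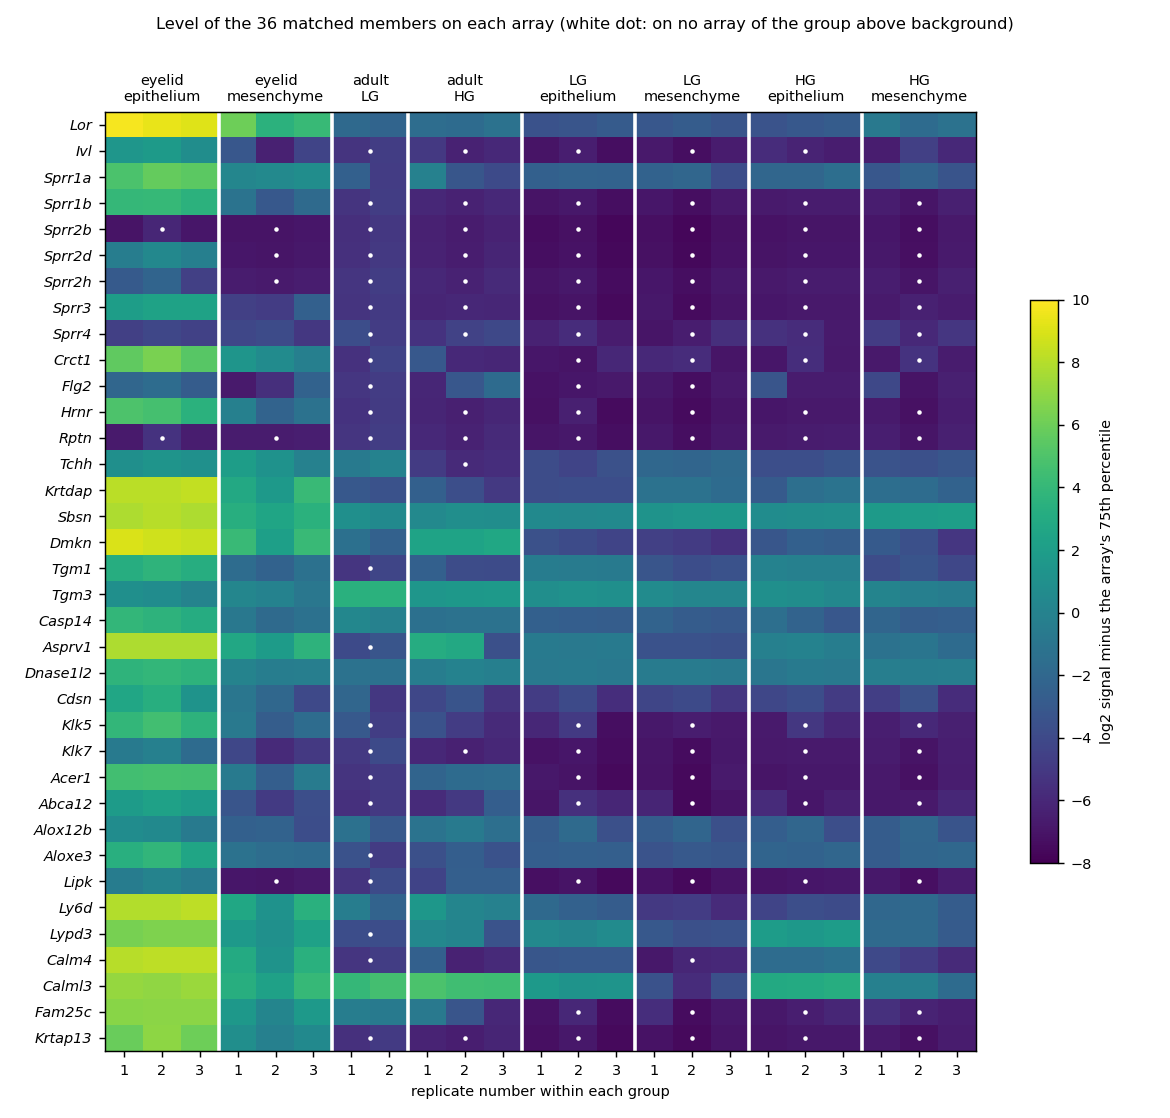
Level of the 36 matched genes (rows) on each of the 23 arrays (columns, by group), as log2 signal minus the array's 75th percentile in colour; a white dot marks a gene that no array of the group measured above background. The 3 eyelid epithelium columns carry 32 genes above background on every array, and LG and HG epithelium 17 each.

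Barrier genes were higher in eyelid epithelium than in eyelid mesenchyme in nearly every role. Of the 32 tested members 30 were called higher and 0 lower (0 lower also at an unadjusted p under 0.05), where 25.7% of all tested genes were called higher and 25.5% lower. The median difference of the members was 5.16, with the middle 50 percent between 4.73 and 5.76, against a median of 0.05 over all genes. In the 25 members that did not pass through eyelid epithelium alone, 24 were called, all but Tchh. In bulk tissue a lower level can come from fewer cells of a type or from less RNA per cell, which cannot be told apart.

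Among the envelope precursors all 7 tested members were higher, with a median difference of 5.84. Of these, Ivl, Sprr2d and Sprr3 passed the brightness filter through eyelid epithelium alone and so had to stand higher there. Loricrin (Lor), the main protein of the mature envelope, stood at 9.74, 9.43 and 9.10 in eyelid epithelium, against 6.06, 3.57 and 4.12 in eyelid mesenchyme. The difference was 4.84 ± 0.44 (SE; adjusted p = 3.55e-08), and the lowest epithelial array lay above the highest mesenchymal one. Sprr1a stood at 4.91, 5.76 and 5.44, against 0.28, 0.45 and 0.82. Both precursors were thus measured in the mesenchyme too, whereas Sprr2d was not. Sprr2d stood at -0.36, 0.39 and -0.21 in eyelid epithelium, was above background on no other array of the series and was at least 25.1-fold higher than in eyelid mesenchyme. Involucrin (Ivl), an early scaffold of the envelope, stood at 1.43, 1.84 and 0.80 in eyelid epithelium, against -3.12, -6.34 and -4.30 in eyelid mesenchyme, where 1 of 3 arrays measured it with this probe. Its other probe gave 5.99, close to the 5.95 of the probe used. Sprr1b, Sprr3 and Crct1, a cysteine-rich gene of the same block, differed by 5.84, 6.22 and 5.16.

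The keratin-bundling relatives of filaggrin were the most uneven role, with 1 of 3 called. Hornerin (Hrnr) stood at 4.95, 4.66 and 3.53 in eyelid epithelium, against -0.13, -2.28 and -1.18 in eyelid mesenchyme, a difference of 5.58 ± 0.43 (adjusted p = 5e-09). Trichohyalin (Tchh), which hardens the inner sheath of the hair follicle, stood at 0.97, 1.32 and 1.0 in eyelid epithelium, against 1.99, 1.19 and -0.09 in eyelid mesenchyme. Those groups overlapped, and the difference of 0.07 ± 0.38 was not called (adjusted p = 0.893). Filaggrin-2 (Flg2) stood at -2.05, -1.63 and -2.79, against -6.69, -5.54 and -2.33, with 1 of 3 mesenchyme arrays above background. Its difference of 2.70 ± 1.13 missed the threshold (adjusted p = 0.0539), and the groups overlapped through mesenchyme replicate 3.

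The secreted products of the upper layers were all higher. Krtdap stood at 8.15, 8.17 and 8.32 in eyelid epithelium, against 2.87, 1.76 and 4.17 in eyelid mesenchyme, a difference of 5.28 ± 0.57 (adjusted p = 3.58e-07). Dermokine (Dmkn) and suprabasin (Sbsn), which neighbour Krtdap on chromosome 7, differed by 5.19 ± 0.53 and 4.74 ± 0.19. Of the 5 crosslinking and processing genes all were called, but 1 by little. Transglutaminase 1 (Tgm1), the membrane-bound crosslinker, stood at 3.24, 3.74 and 3.24, against -1.63, -2.37 and -1.26. Caspase-14 (Casp14) and Asprv1, proteases of filaggrin processing, differed by 4.86 ± 0.33 and 5.03 ± 1.09, and Dnase1l2, which degrades the DNA of dying keratinocytes, by 3.95 ± 0.14. Transglutaminase 3 (Tgm3) stood at 0.95, 0.76 and 0.06 in eyelid epithelium, against 0.29, -0.02 and -0.85 in eyelid mesenchyme, so the groups overlapped. Its difference of 0.78 ± 0.26 (adjusted p = 0.0183) ranged from 0.45 to 1.05 with 1 array left out and was not called without eyelid epithelium replicate 1, eyelid epithelium replicate 2 or eyelid mesenchyme replicate 3. The dimmer Tgm3 probe, not used in the test, differed by 4.0, so the probes of this gene disagree.

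Genes of shedding, of barrier lipid and of the other roles were all called higher. Among them Klk7, Abca12 and Lipk passed the brightness filter through eyelid epithelium alone and so had to stand higher there. Corneodesmosin (Cdsn), the adhesive protein of the last cell junctions, differed by 4.71 ± 0.84, and the kallikreins that cut those junctions, Klk5 and Klk7, by 5.74 ± 0.65 and 4.19 ± 0.39. The lipid genes included Acer1, an alkaline ceramidase, at 4.54, 4.69 and 4.65 in eyelid epithelium, against -0.56, -2.62 and -0.54 in eyelid mesenchyme. Abca12, which loads lipid into the granules of keratinocytes, differed by 5.97 ± 0.64, and Lipk, an acid lipase, was at least 21-fold higher. The epidermal lipoxygenases Aloxe3 and Alox12b differed by 4.77 ± 0.35 and 3.08 ± 0.59, and the Alox12b probe of lower mean, not used in the test, by 5.68. The surface proteins Ly6d and Lypd3 differed by 5.58 ± 0.54 and 4.76 ± 0.65, the calmodulin-like Calm4 and Calml3 by 5.60 ± 0.72 and 3.93 ± 0.51, and Fam25c and the keratin-associated Krtap13 by 5.69 ± 0.85 and 5.87 ± 0.29. Differences were much alike across roles: 23 of the 32 lay between 4 and 6. With Sprr2d and Lipk at their bounds the median of the members was 4.95.

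The slides did not give the same size of difference. Paired within a slide, the members' median difference was 4.68 on slide 1, 6.03 on slide 2 and 4.67 on slide 3, and 27 of the 32 members differed most on slide 2. On slide 2 the members stood high in the epithelium array and low in the mesenchyme array. Their median deviation from the group mean was 0.20 in eyelid epithelium replicate 2, with 28 of 32 members above it, against -0.06 and -0.19 in replicates 1 and 3. In eyelid mesenchyme replicate 2 it was -0.76, against 0.44 and 0.22. In that mesenchyme array the summed level of the 32 members was 52.1 multiples of the 75th percentile, against 157 and 135 in replicates 1 and 3. Summed suprabasal keratins and desmosome genes were also lowest there, at 34.5, against 79.6 and 83.1, with basal epithelium genes at 153, against 167 and 333. The part of such epithelial RNA in the size of the differences was not tested.

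Eyelid epithelium also stood far above the epithelium of both glands. Against LG epithelium 31 of the 32 members were called higher and 0 lower (0 lower also at an unadjusted p under 0.05), with a median difference of 7.98, where 18.3% of all genes were called higher and 27.2% lower. Against HG epithelium 31 were again called higher and 0 lower (0 lower also at an unadjusted p under 0.05), with a median of 7.37, where 18.0% of all genes were higher and 26.6% lower. The medians over all genes were -0.10 and -0.11, and with members at their bounds those of the list were 7.30 and 6.86. Within slides the list medians were 7.92, 7.94 and 7.86 against LG epithelium and 7.06, 7.81 and 7.15 against HG epithelium. Both comparisons share the eyelid epithelium arrays. Of the 19 members that passed the filter through a gland group 18 were called in each, all but Tgm3.

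The largest differences belonged to members of several roles. Lor stood at 9.74, 9.43 and 9.10 in eyelid epithelium, against -3.50, -3.23 and -2.80 in LG epithelium and -3.36, -3.04 and -2.75 in HG epithelium, differences of 12.60 ± 0.44 and 12.48 ± 0.44. All gland arrays measured Lor above background, so the fold of 6215 against LG epithelium and of 5695 against HG epithelium is between measured levels. Dmkn differed by 12.65 ± 0.53 from LG and 11.49 ± 0.53 from HG epithelium, and Krtdap by 11.97 ± 0.57 and 10.01 ± 0.57. Of the members that no gland epithelium array measured, Fam25c was at least 4043-fold higher than in LG epithelium, Krtap13 at least 2776-fold, Crct1 at least 1922-fold, Acer1 at least 870-fold and Hrnr at least 734-fold. The bounds against HG epithelium were lower, with at least 3037-fold for Fam25c and at least 2085-fold for Krtap13. Ivl, whose product starts the envelope, was at least 90.5-fold higher than in LG epithelium and at least 68-fold higher than in HG epithelium.

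At the other end stood Tgm3, Alox12b and Tgm1. The used Tgm3 probe was as bright in the glands as in the eyelid, at 0.95, 0.76 and 0.06 in eyelid epithelium, against 0.89, 1.1 and 0.94 in LG and 0.96, 0.81 and 0.41 in HG epithelium. Its differences of -0.39 ± 0.26 and -0.14 ± 0.26 were not called (adjusted p = 0.249 and 0.717), whereas the dimmer probe was 4.69 higher than in LG epithelium. Alox12b differed by 2.92 ± 0.59 and 3.01 ± 0.59 with the probe used, but its probe of lower mean was 8.58 higher than in LG epithelium, so the probes of this gene disagree too. Tgm1 differed by 3.92 ± 0.35 and 3.53 ± 0.35. Tchh, not called between the eyelid compartments, was 5.01 ± 0.38 and 4.67 ± 0.38 higher than in LG and HG epithelium. Flg2 against HG epithelium (3.34 ± 1.13, adjusted p = 0.0216) was not called without eyelid epithelium replicate 1 or 2 or without HG epithelium replicate 2 or 3, with adjusted p between 0.00459 and 0.093 over the 6 arrays left out in turn. Summed Schwann cell and melanocyte genes were also higher in eyelid epithelium, at 96.7 to 140 multiples of the 75th percentile, against 1.22 to 1.81 in LG and 1.95 to 5.75 in HG epithelium.

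**Figure D2:**
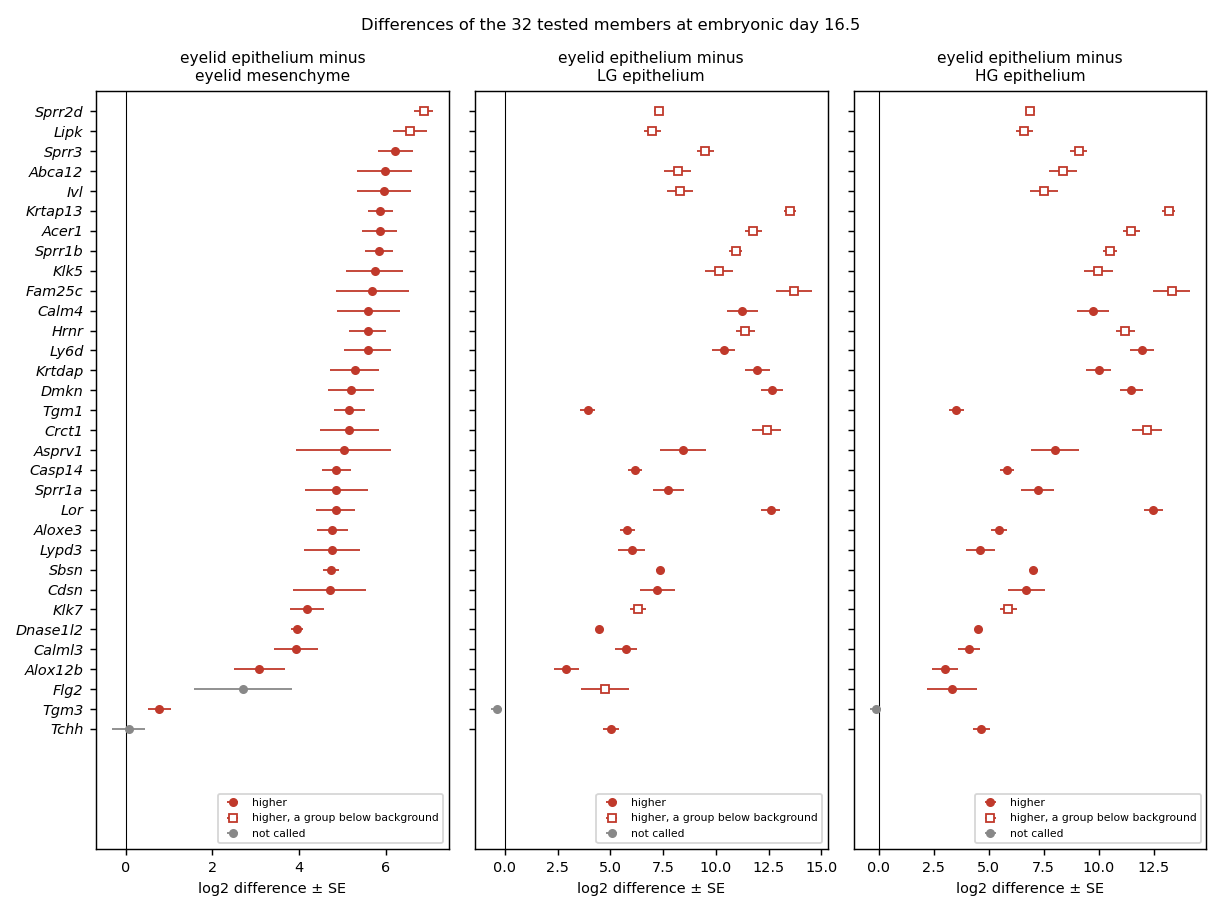
Log2 difference (x axis, with its SE as a bar) of each of the 32 tested genes (rows) in eyelid epithelium against eyelid mesenchyme, LG epithelium and HG epithelium; red marks genes called higher, grey genes not called, and open squares genes that no array of a group measured above background. Points in the left panel lie mostly between 4 and 6. In the gland panels the filled points spread from -0.39 and -0.14 (Tgm3) to 12.65 (Dmkn against LG epithelium) and 12.48 (Lor against HG epithelium). Open squares in those panels are set against background and their exact position is not read.

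Eyelid mesenchyme carried the barrier transcripts above the level of the gland mesenchymes. Set against the mean of LG and HG mesenchyme, 26 of the 32 members were called higher and 0 lower (0 lower also at an unadjusted p under 0.05), with a median difference of 3.52, where 14.5% of all genes were higher and 15.0% lower. Lor differed by 6.72 ± 0.38 and Krtdap by 4.54 ± 0.50, and both were above background on every gland mesenchyme array. Dmkn differed by 7.93 ± 0.45, with 2 of 3 arrays above background in LG and in HG mesenchyme. Of the 26 called members 10 were above background on no gland mesenchyme array, so the size of their difference is set against background and is not given. Sprr2d, Lipk, Dnase1l2, Tgm3, Alox12b and Flg2 were not called. Epithelial markers moved the same way. The summed 10 basal epithelium genes stood at 153 to 333 in eyelid mesenchyme, against 22.8 to 30.7 in LG and 20.3 to 37.6 in HG mesenchyme, and each of the 10 was above background on every eyelid mesenchyme array. The 13 suprabasal keratin and desmosome genes summed to 34.5 to 83.1, against 4.40 to 7.04 and 4.89 to 8.14, with 10 to 11 of them above background on an eyelid mesenchyme array and Krt77, Krt78, Dsg1a and Dsc1 on no gland mesenchyme array. The part of epithelial RNA in these values was not tested. Ivl (1.72 ± 0.53) was not called without eyelid mesenchyme replicate 1 or 3 (0.98 to 2.59 over the arrays left out), and Cdsn (2.22 ± 0.73) not without eyelid mesenchyme replicate 1 or 2, LG mesenchyme replicate 3 or HG mesenchyme replicate 3 (1.53 to 3.08).

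**Figure D3:**
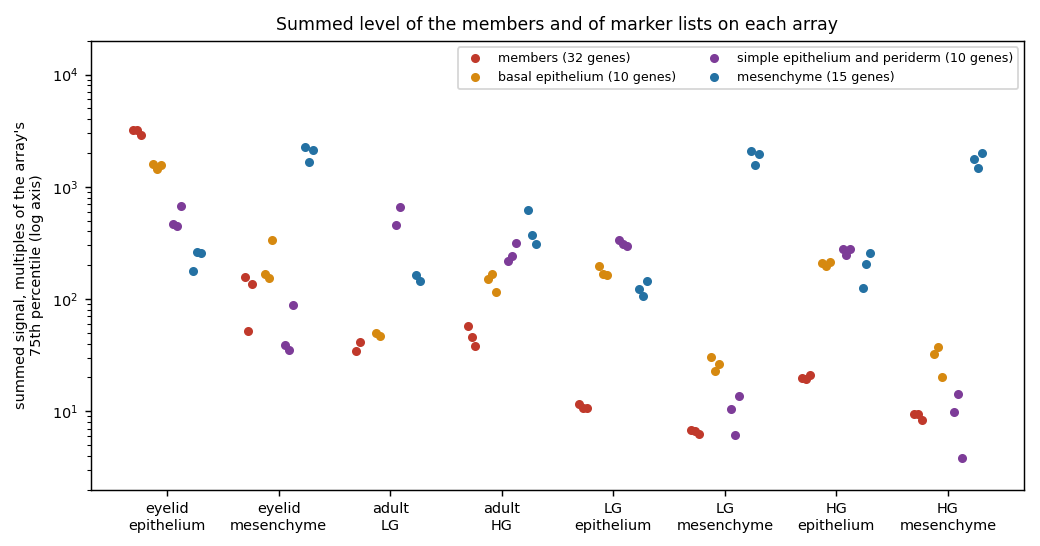
Summed signal (y axis, log scale, in multiples of the array's 75th percentile) of the 32 tested members, 10 basal epithelium genes, 10 simple epithelium and periderm genes and 15 mesenchyme genes, with 1 point per array in each of the 8 groups (x axis). The members sum to 2888 to 3220 in eyelid epithelium and 52.1 to 157 in eyelid mesenchyme, and reach at most 57.2 in a gland group.

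Within the glands the barrier genes showed no common direction between epithelium and mesenchyme. In LG epithelium 6 of the 32 members were called higher and 3 lower than in LG mesenchyme, with a median difference of 0.05, where 32.1% of all genes were higher and 26.5% lower. In HG epithelium 5 were higher and 4 lower than in HG mesenchyme, with a median of 0.01, where 29.8% of all genes were higher and 28.1% lower. These shares are below those of all genes, and 14 members in LG and 12 in HG were above background in neither compartment. Calml3, Lypd3, Calm4 and Tgm1 were higher in the epithelium of both glands, and Sbsn was lower in both.

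The genes with an epithelial excess in the glands included a calcium-binding protein, a crosslinker and surface proteins. Calml3 stood at 1.71, 1.26 and 1.29 in LG epithelium, against -3.48, -5.71 and -3.61 in LG mesenchyme, a difference of 5.68 ± 0.51 (adjusted p = 2.55e-08). In HG it stood at 2.95, 2.98 and 3.22 in epithelium, against -0.16, -0.16 and -1.71 in mesenchyme, a difference of 3.73 ± 0.51 (adjusted p = 5.54e-06). Neither gland's groups overlapped. Tgm1 stood at -0.45, -0.49 and -0.60 in LG epithelium, against -3.25, -3.73 and -3.46 in LG mesenchyme. In HG epithelium it stood at 0.00, -0.18 and -0.18, against -3.84, -3.30 and -4.17 in HG mesenchyme, and the differences were 2.96 ± 0.35 and 3.65 ± 0.35. Tgm1 is the crosslinker also found in simple epithelia, and both gland epithelia held it above background on every array. Lypd3, a surface protein of the Ly6 family, differed by 3.82 ± 0.65 in LG and 3.96 ± 0.65 in HG. Calm4 was at least 4.43-fold higher in LG epithelium and differed by 3.32 ± 0.72 in HG. Asprv1 was called in LG (2.87 ± 1.09, adjusted p = 0.0313) but with any 1 of the 6 arrays left out its adjusted p was between 0.0587 and 0.069. In HG its difference of 1.12 ± 1.09 was not called. Tgm3 differed by 0.93 ± 0.26 in HG (adjusted p = 0.00542). In LG it differed by 0.58 ± 0.26 (adjusted p = 0.0676), which was called with the replicate number as a block (adjusted p = 0.0212). The dimmer Tgm3 probe, not used in the test, showed no such excess. Its means were -5.12 in HG epithelium, against -5.10 in HG mesenchyme, and -5.30 in LG epithelium, against -4.56 in LG mesenchyme.

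Several members were lower in gland epithelium. Krtdap stood at -3.80, -3.74 and -3.73 in LG epithelium, against -1.23, -1.22 and -1.70 in LG mesenchyme, a difference of -2.37 ± 0.57 (adjusted p = 0.00165), whereas in HG it differed by 0.03 ± 0.57. Lor stood at -3.36, -3.04 and -2.75 in HG epithelium, against -0.72, -1.72 and -1.25 in HG mesenchyme, a difference of -1.82 ± 0.44 (adjusted p = 0.00149), whereas in LG it differed by -0.14 ± 0.44. Sbsn was lower in the epithelium of both glands, by -0.90 ± 0.19 in LG and -1.11 ± 0.19 in HG. Dnase1l2 was lower in HG epithelium by -0.43 ± 0.14 and was not called without HG epithelium replicate 1 (adjusted p of 0.0116 to 0.0735 over the arrays left out).

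For Ly6d, and less firmly for Tchh, the compartment difference was called as differing between the glands. Ly6d, a surface protein of stratified epithelia, stood at -1.88, -2.39 and -2.74 in LG epithelium, against -5.03, -4.80 and -5.76 in LG mesenchyme. In HG it stood at -4.31, -3.68 and -3.86 in epithelium, against -1.98, -1.86 and -2.77 in mesenchyme. The epithelial arrays lay above the mesenchymal ones in LG and below them in HG, with differences of 2.86 ± 0.54 and -1.75 ± 0.54. The LG difference minus the HG difference was 4.61 ± 0.77 (adjusted p = 0.000562). Tchh stood at -3.83, -4.34 and -3.57 in LG epithelium, against -2.01, -2.12 and -1.79 in LG mesenchyme, with -3.71, -3.71 and -3.29 in HG epithelium, against -3.40, -3.64 and -3.19 in HG mesenchyme. Its LG difference minus its HG difference was -1.77 ± 0.54 (adjusted p = 0.0463), which was not called when any of 11 of the 12 arrays was left out (-1.94 to -1.56, adjusted p up to 0.12). These were the only members of the 32 called in this comparison, 1 higher and 1 lower, where 4.67% of all genes were higher and 4.04% lower. The counts thus lie near the shares of all genes and do not set the members apart.

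**Figure D4:**
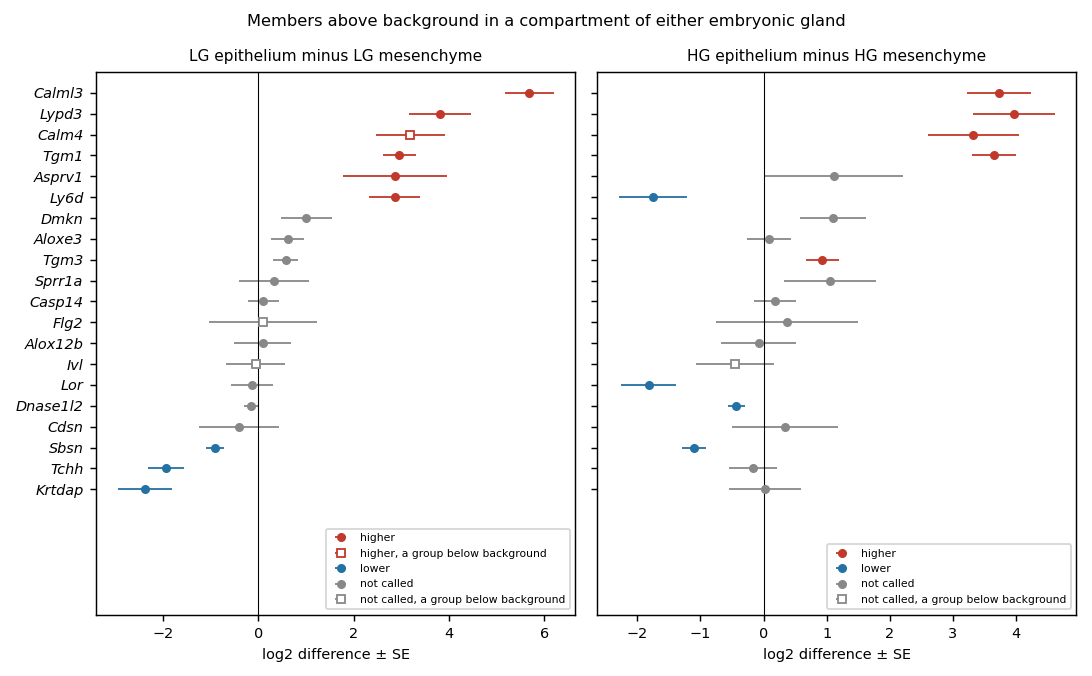
Log2 difference between epithelium and mesenchyme (x axis, with its SE as a bar) in LG (left) and HG (right) for the 20 tested genes (rows) that at least 1 compartment of either gland measured above background; red marks genes called higher, blue genes called lower, grey genes not called, and open squares a group with no array above background. Calml3, Lypd3, Calm4 and Tgm1 lie right of 0 in both panels, and Ly6d lies right of it in LG and left of it in HG.

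The compartment difference of the members was larger in the eyelid than in the glands. The eyelid difference minus the mean of the LG and HG differences had a median of 4.88 over the 32 members, against -0.06 over all genes, with 26 members called higher and 0 lower (0 lower also at an unadjusted p under 0.05), where 18.7% of all genes were higher and 22.9% lower. Of the 25 members that passed the filter through another group as well 20 were called, with a median of 4.72, and of the 19 that passed through a gland group 14 were called, with a median of 4.16. This comparison shares the eyelid arrays with those above. Krtdap, above background in every compartment, stood at 6.45 ± 0.70 (adjusted p = 8.85e-07). Of the 26 called members 12 were above background on no gland mesenchyme array. The members not called were Calml3 (-0.77 ± 0.63), Tgm3 (0.03 ± 0.32), Lypd3 (0.87 ± 0.79), Tchh (1.12 ± 0.46), Flg2 (2.46 ± 1.38) and Asprv1 (3.04 ± 1.34). Calml3 and Lypd3 thus had an epithelial excess in the eyelid and in both glands, with no call for a difference in its size. Calm4 (2.35 ± 0.88, adjusted p = 0.0404) was not called when any of 13 of the 18 arrays was left out (1.68 to 2.79). The value of Tgm3 is that of the probe used. Its dimmer probe, not tested, differed by 4.0 between the eyelid compartments. In the glands that probe's means were -5.30 in LG and -5.12 in HG epithelium, against -4.56 and -5.10 in their mesenchyme.

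No member was called between the gland epithelia. Between LG and HG epithelium 0 of the 32 members were called higher and 0 lower with limma, where 2.96% of all genes were higher and 3.39% lower. Among 32 genes, counts of 0 lie near those shares. At an unadjusted p under 0.05 there were 1 higher and 4 lower. The differences ran from -1.96 ± 0.57 for Krtdap (adjusted p = 0.0504) to 1.62 ± 0.54 for Ly6d (adjusted p = 0.103), and 13 members were above background in neither group. Some members kept 1 sign on all slides. Within slides 1, 2 and 3, LG minus HG epithelium was -1.24, -1.72 and -1.93 for Calml3, -0.92, -2.34 and -2.60 for Krtdap, -1.50, -1.38 and -1.66 for Calm4, -1.48, -1.46 and -1.24 for Lypd3, and 2.43, 1.29 and 1.12 for Ly6d. With the replicate number as a block 0 were called (adjusted p = 0.0669 for Krtdap and 0.0711 for Calml3). The members lower were 1 with normexp correction, 1 with the filter on 2 groups and 2 with the mean over probes.

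In adult LG a few barrier genes were high and most were below background, with 22 of the 36 matched genes above it on no array, against 12 of 36 in adult HG. Compared with LG epithelium, adult LG had 18 of the 32 members called higher and 6 lower, where 31.2% of all genes were higher and 38.7% lower. Of the 18, 11 were above background in neither group, so no change can be read from them. The split was 9 higher and 7 lower with quantile normalization and 24 higher and 2 lower with normexp correction, and without adult LG replicate 2 the lower calls numbered 3. The lowest level well above background was -3.30 and -2.77 on the adult LG arrays, against -5.10, -4.86 and -5.46 on those of LG epithelium. Fam25c stood at -0.39 and -0.56 in adult LG and was on no LG epithelium array above background, which makes it at least 25.4-fold higher. Tchh stood at -0.64 and -0.03 in adult LG, against -3.83, -4.34 and -3.57 in LG epithelium, a difference of 3.58 ± 0.42 (adjusted p = 5.76e-07). Calml3, Casp14 and Tgm3 were higher by 2.86 ± 0.57, 2.71 ± 0.37 and 2.48 ± 0.29. Dmkn was higher by 2.05 ± 0.59, but not called without adult LG replicate 1, and Lor by 1.16 ± 0.49, but not called without either adult LG array or without LG epithelium replicate 1 or 2.

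Members that were lower in adult LG included genes with an epithelial excess in the embryonic gland. Lypd3 was at least 11.1-fold lower and Tgm1 at least 5.75-fold lower than in LG epithelium, since no adult LG array measured either above background. Dnase1l2 was lower by -0.51 ± 0.16. Asprv1 was at least 5.29-fold lower (adjusted p = 0.0361), with adjusted p between 0.0583 and 0.159 when any 1 of the 5 arrays was left out and 0.0532 with slide as a block. Aloxe3 was at least 1.4-fold lower, but not called without adult LG replicate 2 (-2.30 to -0.90 over the arrays left out), and with normexp correction it was 0.36 higher (adjusted p = 0.155). Calm4 was called lower too, at a level that gave no bound. Basal epithelium genes summed to 49.9 and 47 in adult LG, against 162 to 196 in LG epithelium, and their part was not tested.

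Adult HG differed from HG epithelium in more members that could be read. Of the 32 members 13 were called higher and 6 lower, where 34.4% of all genes were higher and 35.6% lower, and 12 of the 13 were above background in at least 1 group. With normexp correction the split was 12 higher and 3 lower. Dmkn stood at 2.45, 2.43 and 2.74 in adult HG, against -3.18, -2.50 and -2.67 in HG epithelium, a difference of 5.32 ± 0.53 (adjusted p = 4.39e-08). Ly6d stood at 1.55, 0.18 and -0.12, against -4.31, -3.68 and -3.86, a difference of 4.49 ± 0.54 (adjusted p = 6.51e-07). The ranges of these 2 genes did not overlap between the stages. Acer1 stood at -2.21, -1.73 and -1.59 in adult HG and on no HG epithelium array above background, which makes this ceramidase at least 7.39-fold higher. The lipase gene Lipk was at least 2.96-fold higher, Fam25c at least 2.63-fold and Abca12 at least 1.21-fold. These bounds moved with single adult HG arrays: without replicate 1 they were 4.5-fold for Lipk, 1.06-fold for Fam25c and 1.91-fold for Abca12, and without replicate 3 Fam25c was at least 6.62-fold higher and Abca12 had no bound above 1. Lor was higher by 1.57 ± 0.44, Calml3 by 1.55 ± 0.51, Tgm3 by 0.89 ± 0.26 and Dnase1l2 by 0.55 ± 0.14. Abca12 was not called without HG epithelium replicate 2 or adult HG replicate 3 or with quantile normalization (adjusted p = 0.0566), and Fam25c not on slides 2 and 3 alone (1.66, adjusted p = 0.0849). Alox12b (1.73 ± 0.59) was not called without adult HG replicate 2 or HG epithelium replicate 3, and Casp14 (0.99 ± 0.33) not without HG epithelium replicate 3.

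Lower in adult HG were Tgm1 (-3.28 ± 0.35), Calm4 (-3.32 ± 0.72), Lypd3 (-2.80 ± 0.65), Krtdap (-1.94 ± 0.57) and Aloxe3 (-1.02 ± 0.35), and Tchh was at least 1.46-fold lower but not called with normexp correction (-0.12, adjusted p = 0.701). Tgm1 stood at -2.47, -3.83 and -3.89 in adult HG, against 0.00, -0.18 and -0.18 in HG epithelium, without overlap. Aloxe3 was not called without adult HG replicate 1 or 3 (-1.33 to -0.81). The adult HG arrays differed among themselves. Asprv1 stood at 3.16, 2.84 and -3.63 and Lypd3 at 0.41, 0.12 and -3.41, both low in replicate 3, while Fam25c stood at -0.72, -3.28 and -6.0. The median level of conjunctiva and cornea markers was 1.68, 1.45 and -2.04 in the same arrays, although their sum was 129, 113 and 149, and skeletal muscle genes summed to 50.7, 4.86 and 1.38. The part of neighbouring tissue in these values was not tested.

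Between the adult glands 8 members were called higher and 8 lower in adult LG than in adult HG, where 22.4% of all genes were higher and 33.2% lower. The split was 5 higher and 10 lower with median scaling, 5 and 11 with quantile normalization, and 12 and 4 with normexp correction, and without adult LG replicate 2 the higher calls numbered 4. Of the higher calls 4 could be read: Tchh, which stood at -0.64 and -0.03 in adult LG, was above background on no adult HG array and at least 13.7-fold higher, and Fam25c, Tgm3 and Casp14 were higher by 2.86 ± 0.95, 1.84 ± 0.29 and 1.40 ± 0.37. Of the lower calls 6 could be read. Dmkn was lower by -4.43 ± 0.59, Ly6d by -1.84 ± 0.61 and Dnase1l2 by -1.03 ± 0.16. Asprv1 was at least 14.2-fold lower, Lypd3 at least 4.21-fold and Acer1 at least 2.29-fold. The adult HG arrays spread widely for Asprv1 and Lypd3, both below the lowest adult LG level above background on adult HG replicate 3. The Asprv1 bound was 6.25-fold without adult HG replicate 1, 6.96-fold without replicate 2 and 65.6-fold without replicate 3, and the difference was not called on slides 2 and 3 alone (adjusted p = 0.0916). The Lypd3 bound was 2.62-fold without adult HG replicate 1 and 9.83-fold without replicate 3, and its difference was not called on slides 2 and 3 alone (adjusted p = 0.0672) or with normexp correction (-1.03, adjusted p = 0.0526). Acer1 was not called with normexp correction either (-0.45, adjusted p = 0.21). Ly6d was not called without adult HG replicate 1 or adult LG replicate 2 (-2.80 to -0.88), and Fam25c not without either adult LG array or adult HG replicate 3 (1.53 to 4.17).

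**Figure D5:**
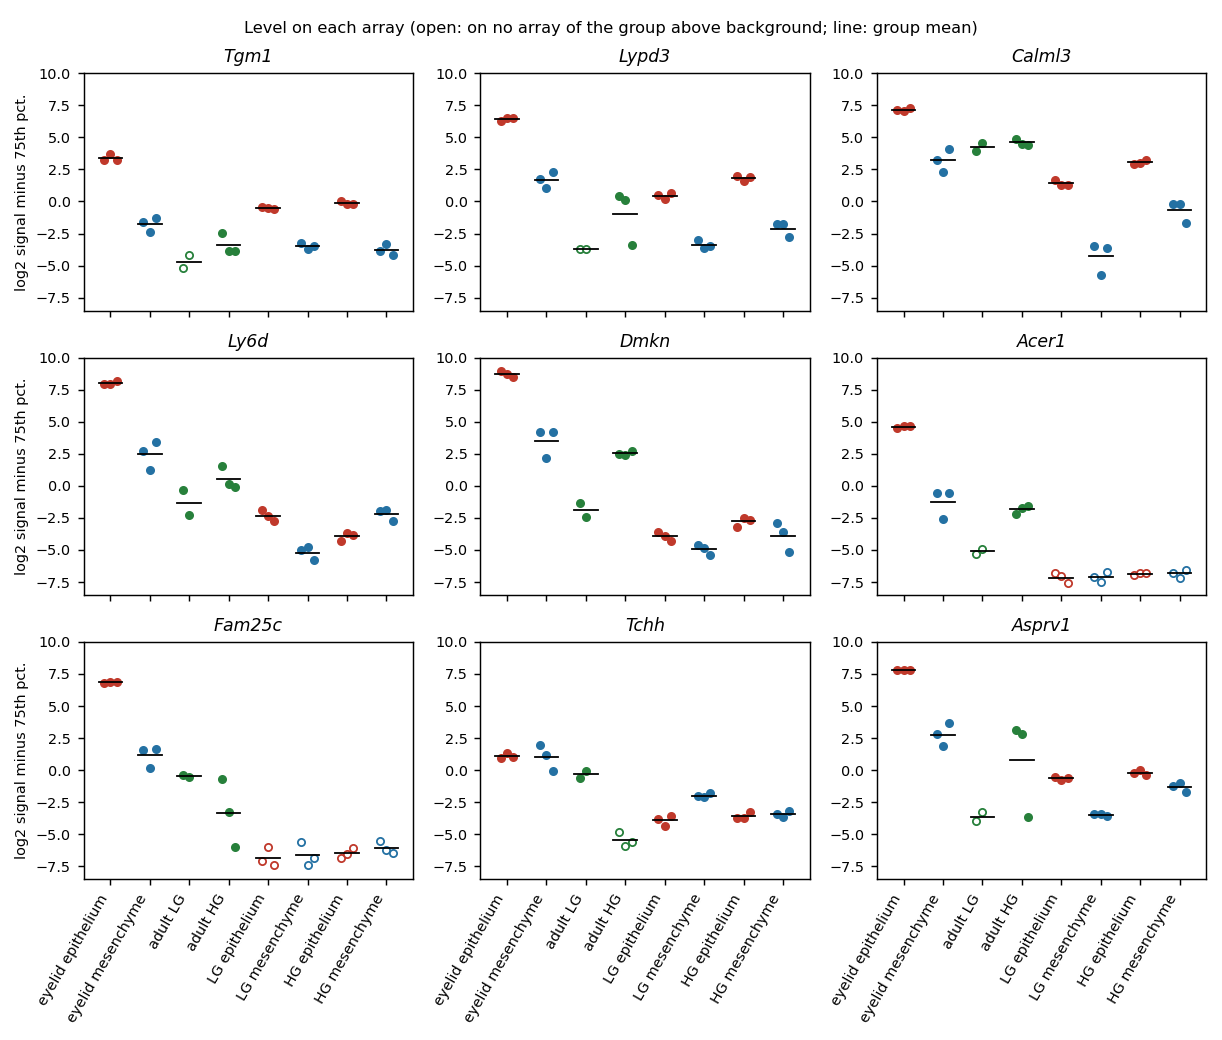
Level (y axis, log2 signal minus the array's 75th percentile) of 9 members on every array of the 8 groups (x axis), red for embryonic epithelium, blue for mesenchyme and green for whole adult glands; open points mark groups with no array above background and lines group means. Eyelid epithelium lies above every other group for 8 of the 9 genes, while Tchh reaches 1.99 on 1 eyelid mesenchyme array.

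Other genes of the barrier, taken from lists outside the 38, mostly moved with them in the eyelid, where 25.7% of all genes were higher and 25.5% lower. The counts include genes that passed the brightness filter through eyelid epithelium alone and so had to stand higher there. Sprr2g and Sprr2k of the envelope list and Spink12 of the inhibitors were above background in no other group. Of 19 tested genes of the envelope and the same chromosome block 15 were higher and 0 lower in eyelid epithelium than in eyelid mesenchyme, with a median difference of 3.90. The late envelope genes Lce1a1 and Lce3f were higher by 5.96 ± 1.28 and 5.83 ± 0.50, and cornifelin (Cnfn) by 5.88 ± 0.78. Of 13 suprabasal keratin and desmosome genes 11 were higher and 0 lower, with a median of 4.69, among them the keratin Krt77 (6.16 ± 0.59) and the desmosomal cadherin Dsg1a (5.67 ± 0.33). Of 15 further lipid genes 12 were higher and 1 lower, among them the fatty acid hydroxylase gene Cyp4f39 (5.71 ± 0.70) and the sphingolipid gene Sptlc3 (5.64 ± 0.35). Of 14 proteases and inhibitors 12 were higher and 0 lower, among them Spink5, the inhibitor of the kallikreins (6.01 ± 0.85). Of 19 epidermal transcription factors 16 were higher and 1 lower, with a median of 2.91, among them Ovol1 (4.86 ± 0.36) and Grhl3 (4.55 ± 0.70).

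The lists parted when the eyelid difference was set against that of the glands, where 18.7% of all genes were higher and 22.9% lower. The envelope list then had 13 genes higher and 0 lower, the suprabasal list 10 and 0, and the lipid list 11 and 1. Genes that passed the filter through eyelid epithelium alone were not taken out of the list counts here either. The transcription factors had 6 higher and 4 lower with a median of -0.01, the basal epithelium list 2 and 1 of 10, and the simple epithelium and periderm list 0 and 6 of 10. The transcription factors lower and the basal genes higher lie near the shares of all genes. The transcription factors higher lie above that share, and the basal genes lower lie under it. Against LG epithelium, where 18.3% of all genes were higher and 27.2% lower, eyelid epithelium had 17 of the 19 envelope genes and 12 of the 13 suprabasal genes higher and 0 lower in either list, with Krt1 at 12.23 ± 0.29, and for the transcription factors 12 higher and 1 lower, with Hopx at 6.26 ± 0.26. Against HG epithelium, where 18.0% were higher and 26.6% lower, the counts were 15, 11 and 12 higher and 0 lower in each. In adult HG, set against HG epithelium, the other lipid genes had 9 higher and 4 lower of 15, where 34.4% of all genes were higher and 35.6% lower. Sptlc3, named after its values were seen, was at least 6224-fold higher there.

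The genes most like the members over the 8 group means, by Pearson's r with the mean profile of the 32, were Krt77 (0.9960), Spink5 (0.9947), Ly6g6c (0.9945), Gm94 (0.9936), Il1f6 (0.9935), Pla2g2f (0.9933), Elmod1 (0.9915), Dsg1a (0.9910), Serpinb7 (0.9907) and Ms4a10 (0.9901). Of 16292 other tested genes 12 were above 0.99. The points are 8 group means that share arrays, scaling and dissection, and the high eyelid epithelium value weighs most in them. Among the members, the profiles least like the mean of the others were those of Tgm3 (r of -0.13), Tchh (0.66), Calml3 (0.70) and Tgm1 (0.72). For Tgm3 this holds for the probe used. Its dimmer probe had a mean of -0.61 in eyelid epithelium and means from -5.30 to -3.39 in the other groups.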

How the data were processed

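RNA of 23 samples was measured on 1-colour Agilent arrays spread over 3 slides. Per the file headers, the deposited intensity values were read with Agilent Feature Extraction 11.0.1.1 on slide 1 and 11.5.1.1 on slides 2 and 3, background-subtracted within each array and not scaled between arrays. The authors' series matrix held the same intensity values averaged over the spots of a probe (median log2 ratio to them of 0). Other flags deposited by the authors marked spots well above background.

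Here control spots and outlier spots were left out, spots of a probe were averaged, and log2 intensity minus the array's 75th percentile was taken from the deposited signal. Of 55681 probes 27509 matched 20887 RefSeq symbols by accession. The systematic names, which link a probe to its gene, differed between the 2 design releases for 9685 probes, and those of the later release were used. A probe was kept where a share of 0.5 or more of its spots passed the background flag on each array of at least 1 group, which left 21402 probes and 16324 genes, each with the probe of highest mean. The 8 groups were fitted together with limma 3.58.1 (R 4.3.3) with two-sided tests and Benjamini-Hochberg adjustment over these genes. The number of arrays limits the precision. The fit was tested on simulated data. A bound on a fold sets the brighter group's mean against the lowest signal well above background on each array of the dimmer group.

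Same-numbered embryonic arrays share a slide, and their residuals correlated at 0.171 to 0.578 in the comparisons of 2 embryonic groups. Over all 45 same-numbered embryonic pairs the lowest correlation was 0.0664. Arrays of the same number thus varied together, and a pairing by replicate cannot be told apart from the slide. Among pairs with adult arrays the correlation went down to -0.34. Adult LG replicate 1 was on slide 2 and replicate 2 on slide 3, so its replicate numbers do not match the slides of the other groups. The 38 members and the other gene lists were chosen with earlier results of these data known. Every member may be named. Genes of other lists were named for the largest differences of called genes in the eyelid comparisons, and the 10 genes most like the members by Pearson's r over the 8 group means. The test of LG against HG compartment differences, the bounds with 1 array left out and the counts without the 7 members that passed through eyelid epithelium alone were added after the members' values were seen.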

Additional observations from a re-analysis of the deposited data

Results flagged for a closer look

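The difference between epithelium and mesenchyme was tested for a difference between tissues. It was higher in the eyelid than in the mean of both glands for 26 of the 32 tested members and lower for 0 (0 lower also at an unadjusted p under 0.05, limma). Of the 25 members that passed the brightness filter through another group than eyelid epithelium as well, 20 were called. On the log2 scale this difference of differences was 6.45 for Krtdap, which was above background in every compartment. Fitted values for Sprr2d (6.91) and Lipk (6.59) are set against background, since no eyelid mesenchyme array and no array of a gland compartment measured either, and they passed the filter through eyelid epithelium alone. The exact size is not read for these 2 genes.

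Between the glands, the compartment difference in LG minus that in HG was 4.61 for Ly6d and -1.77 for Tchh. These were the only calls among the 32 members, 1 higher and 1 lower, near the shares of all genes (4.67% and 4.04%). For Ly6d the epithelium was higher in LG and lower in HG than its mesenchyme, in 3 of 3 slides of each gland. Tchh was lower in LG epithelium than in LG mesenchyme in 3 of 3 slides, and its call was lost when any of 11 of the 12 arrays was left out.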

How the results depend on the processing

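Of 204 calls of a member in a comparison that could be read against background, 18 were lost when some array was left out. Calls from which no change could be read, all in comparisons with adult glands, are not among the 204. Under an alternative 1 of the 204 turned direction. That was Aloxe3 in adult LG against LG epithelium, which was 0.36 higher (adjusted p = 0.155) with normexp correction of spot and background medians. With the replicate number as a block 0 of the 204 calls were lost. The counts higher with that block were 30 for eyelid epithelium against mesenchyme, 31 against LG and 31 against HG epithelium, 7 for the LG and 5 for the HG compartments, and Tgm3 in LG was the call added. Among the 204, calls lost numbered 7 with median scaling, 1 with slide as a block, 4 with quantile normalization and 10 with normexp. They numbered 16 on slides 2 and 3 alone, 3 with the mean over probes, 2 with no filter, and 0 with the authors' matrix. The counts of the eyelid comparisons stayed within 1.5 times of those reported under every alternative run.

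Counts that moved further were few, and for each the cause was not tested. They are counts of all calls, also of those from which no change could be read. On slides 2 and 3 alone, with fewer arrays, 2 members were lower in HG epithelium than in HG mesenchyme and 5 lower in adult LG than in adult HG. Between LG and HG epithelium the members lower were 1 with normexp, 1 with the filter on 2 groups, 2 with the mean over probes, and 0 to 1 with 1 array left out. In adult LG against LG epithelium quantile normalization left 9 members higher, normexp left 2 lower, and leaving out 1 array left 3 to 5 lower, the fewest without adult LG replicate 2. Normexp left 3 lower in adult HG against HG epithelium. In adult LG against adult HG 5 were higher with median scaling, 5 with quantile normalization and 4 to 8 with 1 array left out, the fewest without adult LG replicate 2, and 4 were lower with normexp. Median scaling moved the median of all genes by -0.47 in adult LG against LG epithelium and by -0.248 against adult HG. The normexp alternative used spot medians and not the planned spot means, and together with slides 2 and 3 alone it was chosen after seeing the data. Weak signal over background limits the gland comparisons: 14 members in LG and 12 in HG were above background in neither compartment.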
